A study of Homo sapiens
Mus musculus with 8 samples.

Results

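Jurkat-like cells with a high mitochondrial share were barcodes of the 3′ v3 libraries in which at least 10% of the human UMIs fell on genes of the mitochondrial genome (the mitochondrial share). A UMI, or unique molecular identifier, counts 1 captured RNA molecule. A barcode was called Jurkat-like if it held at least 1500 UMIs, if over 80% of them were human, and if NKG7, CST7 and CD8A together took less than 0.02% of the human UMIs. By this rule 741 of 5674 Jurkat-like barcodes had a high share, out of 22012 barcodes with at least 1500 UMIs in these libraries and 28888 in all 7 libraries of the series used here. The members were thus chosen by their measured mitochondrial UMIs and by these 3 genes. The 4933 Jurkat-like barcodes under 10% in the same libraries were the comparison.

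The study mixed 4 lymphocyte cell lines in equal parts and made libraries with several single-cell kits. Jurkat is a human leukaemia line of CD4+ T cells and TALL-104 a human leukaemia line of CD8+ cytotoxic T cells, while EL4 (T cells) and IVA12 (B cells) are mouse lines. Libraries 21, 22, 23 and 24 were made with the Chromium 3′ v3 kit, which captures messenger RNA at its 3′ end in droplets, aiming to capture 3000 cells (21 and 22) or 6000 cells (23 and 24). No library was treated, and the main comparison is between the high and the low share within each library. The study's sample sheet places libraries 21 and 23 in one preparation of the mixture and libraries 22 and 24 in another. Whether the preparations came from separate cultures is not given in the sources used here. All p-values below concern these libraries only, and those for single genes also lean on a spread pooled over genes.

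The mitochondrial genome encodes 13 mRNAs for subunits of the respiratory chain and of ATP synthase, which are transcribed inside the organelle as long precursors from both strands. All other proteins of mitochondria come from nuclear genes and are imported from the cytosol. A high mitochondrial share of a single-cell library is widely used as a sign of damaged cells that have lost cytosolic RNA, and it also differs between cell types with their content of mitochondria. MALAT1 and NEAT1 are long RNAs that stay in the nucleus.

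High shares were unevenly spread over the libraries. They were found in 50 of 1491 Jurkat-like barcodes of library 21 (3.35%, exact 95% binomial interval 2.5% to 4.40%), in 156 of 286 of library 22 (54.5%, 48.6% to 60.4%), in 20 of 3033 of library 23 (0.66%, 0.40% to 1.02%) and in 515 of 864 of library 24 (59.6%, 56.2% to 62.9%). Both libraries of the second preparation thus lay above both of the first, and they held 671 of the 741 barcodes (90.6%). The intervals cover counting error only. By the same rule the other kits gave 1 of 285 barcodes in the 3′ v2 library 2, 20 of 1376 in the 5′ v1 library 5 and 24 of 629 in the 5′ v1 library 6.

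The median mitochondrial share of all Jurkat-like barcodes was 6.38%, 10.2%, 4.88% and 10.5% in libraries 21, 22, 23 and 24. The threshold of 10% therefore cut through the middle of a single-peaked distribution in libraries 22 and 24, whereas in libraries 21 and 23 it took the upper tail. In all, 238 barcodes (32.1%) lay between 10% and 11%, with 235 in the low group between 9% and 10%, and 414 (55.9%) lay below 12%. A share of at least 20% was seen in 40 barcodes (5.40%). The high group of libraries 22 and 24 was accordingly a range of a continuous measure. In libraries 21 and 23, 6 and 9 of its barcodes lay at 30% or more, with none between 25% and 30%. These values, which chose its members, are given without a test.

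**Figure D1:**
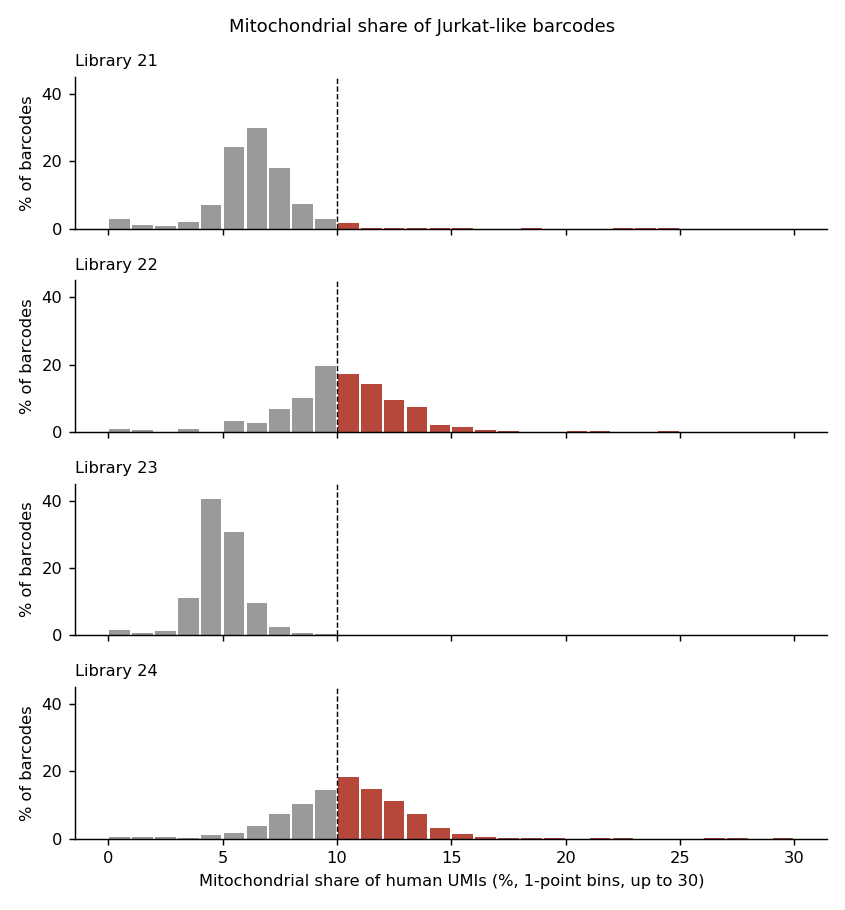
Histograms of the mitochondrial share (x axis, percent of human UMIs in bins of 1 point, shown up to 30%) of the Jurkat-like barcodes of each library (y axis, percent of barcodes). Red bars mark the high group from the dashed line at 10% upwards, which sits at the peak in libraries 22 and 24 (medians 10.2% and 10.5%) and in the tail in libraries 21 and 23.

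The barcodes carried the markers of Jurkat cells. All 14 listed markers found in the reference (among them the CD3 chains, LEF1, TCF7, TAL1, MYB and ITM2A) had UMIs in the high group of libraries 21, 22 and 24, and 13 had UMIs in that of library 23. Their summed level was 7560, 5918, 6772 and 5847 CPM (UMIs per 1000000 non-mitochondrial human UMIs) in the high group of libraries 21 to 24, and 7041, 6038, 6984 and 5841 CPM in the low group. TALL-104-like barcodes of the same libraries had 2968 to 3744 CPM. Between the high and low groups the median log2 difference of the 13 markers tested was −0.01. None of them passed the test described below, but 0 of all 6708 genes passed it, so this count is no result about the markers. The name Jurkat-like, given by the rule, thus went with summed marker levels above those of TALL-104-like barcodes. In libraries 22 and 24, which held most of the high group, its distribution showed no peak of its own, whereas in library 23 9 of its 20 barcodes lay at 30% or more and 1 between 17% and 30%.

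The 26 listed TALL-104 markers, which hold the 3 genes of the rule, summed to 633, 445, 448 and 483 CPM in the high group and to 495, 646, 472 and 705 CPM in the low group, against 23717 to 27030 CPM in TALL-104-like barcodes. Through those 3 genes the rule itself set part of the distance to TALL-104-like barcodes. In libraries 22 and 24 the sum was lower in the high group, and most of that gap was IL32, at 311 and 320 against 440 and 487 CPM, which had UMIs in 83.1% to 85.3% of Jurkat-like barcodes of both groups. Other markers were also lower in the high group of both libraries, among them CCL5 (2.3 and 10 against 19.9 and 22.9 CPM), KLRB1 (0 and 3.2 against 18.3 and 23.5 CPM) and GZMM (9.6 and 8.8 against 16.7 and 19.2 CPM), while CST7, a gene of the rule, was higher (31.6 and 31.6 against 25.5 and 23.8 CPM). A UMI of any of 11 cytotoxic genes was found in 47.4% and 44.7% of the high group and 48.5% and 42.4% of the low group. Over the 6 pairs of libraries 56 barcode sequences occurred in both, where 23.5 would be shared by chance, and 0 of them were high-share barcodes in both.

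The threshold cut through the middle of the distribution in libraries 22 and 24 and took the tail in 21 and 23. At this threshold the UMIs of the high and low groups compared differently in the 2 preparations. In libraries 22 and 24 the high group had more mitochondrial UMIs per barcode than the low group, with medians of 1340 against 883 and 1207 against 766, and nearly the same number of other human UMIs, with medians of 9584 against 9514.5 and 8711 against 8744. In libraries 21 and 23 the medians of mitochondrial UMIs were closer, at 1284.5 against 1133 and 934.5 against 846, while the other human UMIs were 7668.5 against 16533 and 2917.5 against 16378. Under 5000 UMIs in total were found in 22% and 60% of the high group of libraries 21 and 23, and in 8.33% and 8.93% of that of libraries 22 and 24. In the low group they were 4.51% and 1.99% in libraries 21 and 23, below the high group, and 16.9% and 18.1% in 22 and 24, above it. Since both quantities enter the share, no test was applied to them. With a threshold set within each library, described below, the high group had fewer other human UMIs in every library. The medians were then 12017.5, 8325, 12636 and 7525 against 16760, 9733, 16670 and 8873 in libraries 21 to 24. The contrast between preparations thus cannot be told apart here from the place of the threshold.

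**Figure D2:**
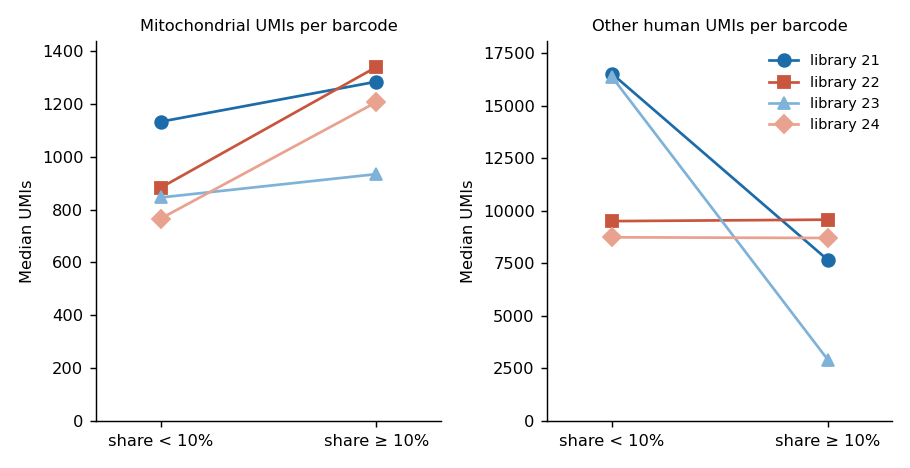
Median mitochondrial UMIs (left) and other human UMIs (right) per Jurkat-like barcode under and at or above a mitochondrial share of 10%, with 1 line per library. In libraries 22 and 24 the lines rise on the left (883 to 1340 and 766 to 1207) and are level on the right, and in libraries 21 and 23 they drop on the right (16533 to 7668.5 and 16378 to 2917.5).

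The median number of genes per barcode was 2958.5, 3555, 1646.5 and 3353 in the high group and 4319, 3422, 4375 and 3302 in the low group of libraries 21 to 24. When each barcode was thinned to 1000 non-mitochondrial human UMIs, the median number of genes was 671, 677, 727.5 and 680 in the high group and 670, 679, 676 and 676 in the low group of libraries 21 to 24. The mean difference was 0.03 ± 0.05 on the log2 scale (SD, n = 4 libraries), with an exact two-sided sign-flip p of 0.375, and 3 of 4 libraries were higher. Mouse UMIs, which reach human cells as free RNA or through mixed droplets, numbered 42.2, 13.8, 104 and 31.4 per 1000 UMIs of a barcode in the high group and 18.6, 13.7, 41.8 and 35.4 in the low group. The rule for Jurkat-like barcodes sets a minimum human percentage and so caps these mouse values in both groups. No conclusion is therefore drawn from their test. The mean difference was 20.5 ± 30.5 per 1000 UMIs (SD, n = 4 libraries), with an exact sign-flip p of 0.375, again with 3 of 4 higher. It was 0.29 with barcodes matched on depth, 2.38 at over 95% human UMIs and 6.56 without library 23, and the difference in thinned genes was 0.0021 on the log2 scale without library 23. The smallest p this design allows is about 0.13. The mouse values stood well apart in libraries 21 and 23 and close together in 22 and 24.

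The shares of the 13 mitochondrial mRNAs among the mitochondrial UMIs are given as a description. MT-CO1, the catalytic subunit of cytochrome c oxidase, took 13.8%, 14.3%, 13.7% and 14% of mitochondrial UMIs in the high group of libraries 21 to 24 and 13.8%, 15.6%, 13.9% and 15.9% in the low group. MT-ND4, a membrane subunit of complex I, took 9.68%, 10.6%, 9.39% and 11% in the high group and 9.42%, 11.1%, 10.2% and 11% in the low group, with no common direction. MT-ND6, the complex I subunit encoded on the other strand, was lower in the high group of every library, at 0.55%, 0.97%, 0.91% and 1.19% against 0.99%, 1.36%, 1.24% and 1.49%. MT-CO1 (by 0.07 to 1.84 points), MT-ND1, MT-ND2 and MT-ND5 were also lower in 4 of 4 libraries, and MT-ND3 was higher in 4 of 4, by 0.22 to 2.19 points. The other mRNAs differed in sign between libraries.

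The nuclear genes were then compared on non-mitochondrial human UMIs only, without NKG7, CST7 and CD8A. Counts were summed per library and group, which left 478459, 1769449, 100415 and 4997389 UMIs in the high group of libraries 21 to 24 and 27160021, 1254078, 56281967 and 3280435 in the low group. Of 6708 genes with a mean of at least 20 CPM, 0 passed an adjusted p of 0.05 in edgeR's quasi-likelihood test with the library as a block (0.0%), with 313 at an unadjusted p under 0.05. DESeq2 called 1 gene, the glycolytic enzyme ENO1. The smallest sum held 20 barcodes, and without its library (23) edgeR called 1 gene. Over 226 genes of at least 500 CPM, the median absolute log2 difference between the high and low groups was 0.12, 0.07, 0.24 and 0.06 within libraries 21 to 24, and 0.38 to 0.39 between the low groups of the 2 preparations.

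Among the genes nearest to the threshold were CCNB1, BNIP3 and ENO1. CCNB1, the cyclin that drives entry into mitosis, stood at 173, 83.6, 219 and 127 CPM in the high group of libraries 21 to 24 and at 330, 165, 316 and 144 CPM in the low group, so that each library's high group lay below its low group (log2 difference −0.68 ± 0.15 SE, adjusted p = 0.23). ENO1, which makes phosphoenolpyruvate in glycolysis, stood at 842, 596, 876 and 647 CPM against 1096, 884, 1047 and 887 CPM (log2 −0.49 ± 0.12 SE, adjusted p = 0.40), again lower in 4 of 4. BNIP3, a mitochondrial outer membrane protein that targets mitochondria for degradation, stood at 31.4, 49.7, 39.8 and 43.2 CPM against 32.4, 85.3, 36.2 and 77.7 CPM (log2 −0.72 ± 0.15 SE, adjusted p = 0.23), and only the values of libraries 22 and 24 were clearly apart. These 3 genes were chosen after their values were seen, apart from ENO1, which the rule for named genes gave.

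Within the preparation that held most of the high-share barcodes (libraries 22 and 24), 136 of 6999 genes passed (1.94%), 39 higher (0.557%) and 97 lower (1.39%) in the high group. With 2 libraries per group this fit leans on the spread pooled over genes, and it compares repeat captures of 1 mixture. Its small p-values thus do not measure the spread between these 2 libraries alone. In libraries 21 and 23, edgeR called 0 of 6261 genes (0.0%), with 369 at an unadjusted p under 0.05, and DESeq2 was not run there. That the preparations differ in their counts of calls does not show that the genes differ, and the difference itself was tested separately. The calls of libraries 22 and 24 numbered 77 with barcodes matched on depth (1.1% of those tested, 0.315% higher and 0.787% lower, 69 shared with the 136) and 90 with the low group limited to shares of 5% to 10% (89 shared). Without barcodes that held any UMI of 11 cytotoxic genes they numbered 71 (1.02%, 0.143% higher and 0.875% lower), of which 49 were shared. Of the 136 genes, all 135 tested with depth matching kept their sign, as did all 133 tested without barcodes with cytotoxic UMIs. The latter subset held 82 and 285 high-share barcodes in libraries 22 and 24. Both subsets are drawn from the same barcodes. DESeq2 was not run on these subsets.

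Glycolytic genes were among the calls of libraries 22 and 24, where 7 of 17 tested genes of the list were lower in the high group and 0 were higher, against 1.39% of all genes. The median log2 difference of the list was −0.23, against 0.00 for all genes, and 15 of the 17 were below 0. With depth matching 7 of 17 passed, and the median was −0.14, as it was without barcodes with cytotoxic UMIs. The 7 were ENO1 (log2 −0.49 ± 0.05 SE, adjusted p = 3.2e-18), ALDOC (−0.66), GPI (−0.46), PGK1 (−0.34), LDHA (−0.34), ALDOA (−0.27) and TPI1 (−0.23), which together cover steps from glucose 6-phosphate to lactate. Without barcodes with cytotoxic UMIs, ENO1, PGK1 and LDHA still passed, and GPI (−0.39), ALDOA (−0.21), ALDOC (−0.42) and TPI1 (−0.14) did not. LDHA, which turns pyruvate into lactate, stood at 515 and 437 CPM in the high group against 599 and 588 CPM in the low group of libraries 22 and 24. GAPDH did not pass, at 3061 and 3227 CPM against 3395 and 3325 CPM (log2 −0.09, adjusted p = 0.27). LDHB, which favours the reverse reaction, had a log2 difference of 0.05 (adjusted p = 0.75). Several of these genes have processed pseudogenes that can share their reads.

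Across all 4 libraries the list median was −0.25 for 16 tested genes, of which 0 passed, and by library it was −0.22, −0.20, −0.27 and −0.24. Here scaling mattered for library 23. The TMM factors, which correct for a shift in most genes, moved all log2 differences by 0.08 in library 21 and 0.21 in library 23, and by under 0.01 in the others. Without them the list medians were −0.15, −0.21, −0.07 and −0.24, against 0.03, −0.01, 0.21 and 0.00 for all genes. Since the factors shift every gene of a library alike, they cannot move the list against the median of all genes. Levels of the low group were also far apart between preparations: the list summed to 14396 and 15448 CPM in barcodes of 5% to 10% in libraries 23 and 21, and to 8888 and 9229 CPM in libraries 24 and 22.

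**Figure D3:**
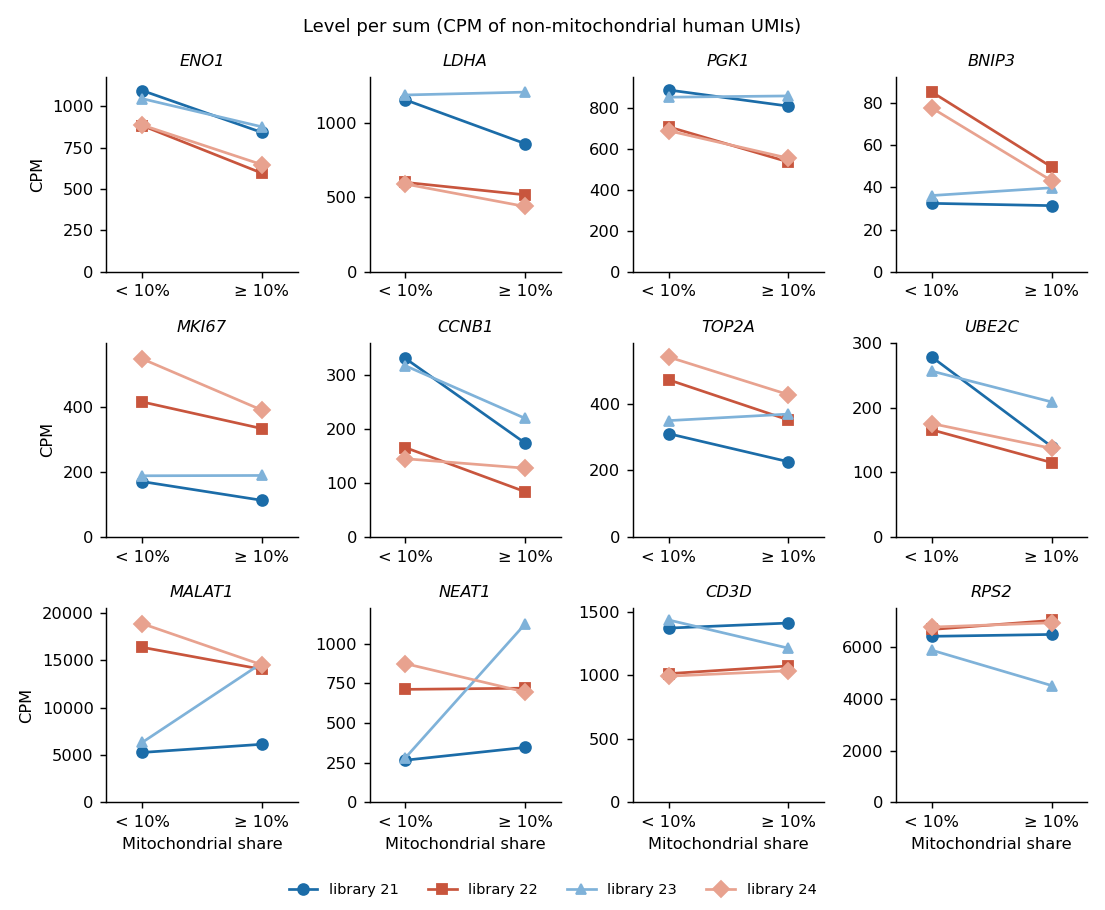
Level of 12 genes (CPM of non-mitochondrial human UMIs, y axes from 0) in the summed barcodes under and at or above a mitochondrial share of 10%, with 1 line per library and no TMM scaling. ENO1 and CCNB1 lie lower on the right in 4 of 4 libraries, BNIP3 only clearly in libraries 22 and 24, and MALAT1 falls in libraries 22 and 24 (16359 to 14042 and 18859 to 14510 CPM) and climbs in 21 and 23 (5268 to 6130 and 6325 to 14699 CPM).

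Further single genes that passed in libraries 22 and 24 were chosen after their values were seen. BNIP3 was lower by 0.82 on the log2 scale (adjusted p = 3.1e-08) and its relative BNIP3L by 0.38 (adjusted p = 0.0076). PDK1, a mitochondrial kinase that inhibits pyruvate dehydrogenase, stood at 32.8 and 32.8 CPM against 43.1 and 51.8 CPM (log2 −0.59, adjusted p = 0.0056). POLG, the mitochondrial DNA polymerase, stood at 49.2 and 51.0 CPM against 79.7 and 70.4 CPM (log2 −0.53, adjusted p = 0.0029). The prolyl hydroxylase gene P4HA1 (log2 −0.44) and the histone demethylase gene KDM3A (log2 −0.56) were lower as well, while UCP2, a carrier of the inner mitochondrial membrane, was higher (log2 0.35, adjusted p = 0.0038). In libraries 21 and 23, BNIP3L was at 121 and 79.7 CPM against 76.4 and 74.1 CPM and BNIP3 showed no common sign. Without barcodes with cytotoxic UMIs, BNIP3 and POLG still passed in libraries 22 and 24, and BNIP3L, PDK1, P4HA1 and KDM3A did not.

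Genes of the G2 and M phases were lower as well. In libraries 22 and 24, 14 of 48 tested genes were lower in the high group, against 1.39% of all genes, and 0 were higher, all 48 were below 0, and the median log2 difference was −0.26 against 0.00 for all genes. Without barcodes with cytotoxic UMIs, 21 of 47 passed, against 0.875% of all genes, and the median was −0.47. The proliferation antigen MKI67 stood at 333 and 390 CPM in the high group and at 415 and 548 CPM in the low group (log2 −0.42 ± 0.06 SE, adjusted p = 2.0e-08). TOP2A, the topoisomerase that untangles chromosomes, stood at 351 and 427 CPM against 471 and 540 CPM (log2 −0.36, adjusted p = 1.9e-06). CENPF, a kinetochore protein, differed by −0.34, CDC20, an activator of the anaphase-promoting complex, by −0.46, and HMGB2, a chromatin protein, by −0.29. Across the 4 libraries the list medians were −0.58, −0.30, −0.43 and −0.25, or −0.50, −0.31, −0.23 and −0.24 without TMM, and 0 of 47 passed in the joint test.

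The S phase list had a median of 0.01 in libraries 22 and 24, with 1 of 36 genes lower, against 1.39% of all genes. The clustered histone genes, most of which are expressed during DNA replication, had 4 of 10 lower against the same share (HIST1H2AM, log2 −0.54, HIST1H1C, −0.42, HIST1H1E, −0.37, and HIST1H1D, −0.26) and 0 higher, with all 10 below 0. With depth matching 3 of 10 passed, without HIST1H1E (log2 −0.30, adjusted p = 0.081). Without barcodes with cytotoxic UMIs 4 of 10 were lower, and HIST1H1D did not pass (log2 −0.20, adjusted p = 0.33). Many histone genes are similar in sequence, so that counts of single members can be uncertain.

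The nuclear RNA MALAT1 differed in opposite directions in the 2 preparations. It stood at 6130, 14042, 14699 and 14510 CPM in the high group of libraries 21 to 24 and at 5268, 16359, 6325 and 18859 CPM in the low group. The high group was thus lower in libraries 22 and 24 and higher in 21 and 23, with the largest gap in library 23. In library 21 the 40 barcodes of 10% to 20% stood at 5623 CPM. This lay between its barcodes under 5% (6121 CPM) and those of 5% to 10% (5146 CPM). The 10 barcodes of 10% to 20% in library 23 stood at 10048 CPM. The joint log2 difference was 0.13 ± 0.16 SE (adjusted p = 0.999), that of libraries 22 and 24 was −0.29 ± 0.03 SE (adjusted p = 5.0e-17), and the difference between preparations did not pass (adjusted p = 0.091). Without barcodes with cytotoxic UMIs the value for libraries 22 and 24 was −0.29 with an adjusted p of 0.17. TALL-104-like barcodes of libraries 22 and 24 held 56253 to 63646 CPM of MALAT1, and the summed TALL-104 markers and the shares of barcodes with a cytotoxic UMI are given above. The part of TALL-104 RNA in the difference was not tested.

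NEAT1 stood at 347, 721, 1125 and 696 CPM in the high group and at 266, 713, 282 and 875 CPM in the low group. The fit of libraries 22 and 24 gave a log2 difference of −0.19 (adjusted p = 0.018). That value rests on library 24, since in library 22 the high group was not lower (721 against 713 CPM). Of the 5 nuclear long RNAs tested there 3 were lower, against 1.39% of all genes, and 0 higher, the third being KCNQ1OT1 (log2 −0.41). With depth matching NEAT1 was at log2 −0.17 and no longer passed (adjusted p = 0.077). Without barcodes with cytotoxic UMIs 1 of the 5 passed, KCNQ1OT1 (adjusted p = 0.049), and NEAT1 was at −0.14. Barcodes under 100 UMIs, which hold mainly free RNA, had 9733, 15852, 14364 and 17338 CPM of MALAT1 in libraries 21 to 24, and 7.51%, 9.29%, 7.36% and 10.8% of their human UMIs were mitochondrial.

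Levels also varied with the mitochondrial share within the low and the high group. In library 24 the listed nuclear RNAs summed to 26764 CPM in the 25 barcodes under 5%, to 19620 CPM between 5% and 10%, to 15377 CPM in the 500 barcodes between 10% and 20%, and to 26793 CPM in the 13 barcodes between 20% and 40%, a course down and up again. The glycolysis list stood over the first 3 bins at 9494, 8888 and 8077 CPM, and the G2 and M phase list stood at 8683, 8772 and 7417 CPM. Glycolysis took another course in library 23 (14521, 14396 and 14698 CPM) and in library 21 (14664, 15448 and 14243 CPM), and the nuclear RNAs were at 6533, 6911 and 10921 CPM in library 23, the last in 10 barcodes, and at 6464, 5486 and 6066 CPM in library 21. In the 13 barcodes of library 24's last bin glycolysis stood at 6455 CPM and the G2 and M phase list at 3892 CPM. The 40 barcodes at 20% or more were poor in RNA, with a median of 998 to 2287 non-mitochondrial human UMIs by library. Their MALAT1 level was 21067, 22901, 33165 and 24797 CPM in libraries 21 to 24, which rests on 331, 447, 670 and 1091 UMIs. Their summed Jurkat markers, at 7065 to 7582 CPM, were near those of the other Jurkat-like barcodes. Their summed TALL-104 markers were at 827, 871, 446 and 500 CPM in libraries 21 to 24, on few UMIs. Mouse UMIs were 59.1 to 135 per 1000 in them, above the mean of the whole high group in each library. Set against the low group, they gave 110 calls of 7051 genes (1.56%), 8 higher (0.113%) and 102 lower (1.45%), on sums of 15712 to 43997 UMIs and with a median log2 difference of all genes of −0.39.

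**Figure D4:**
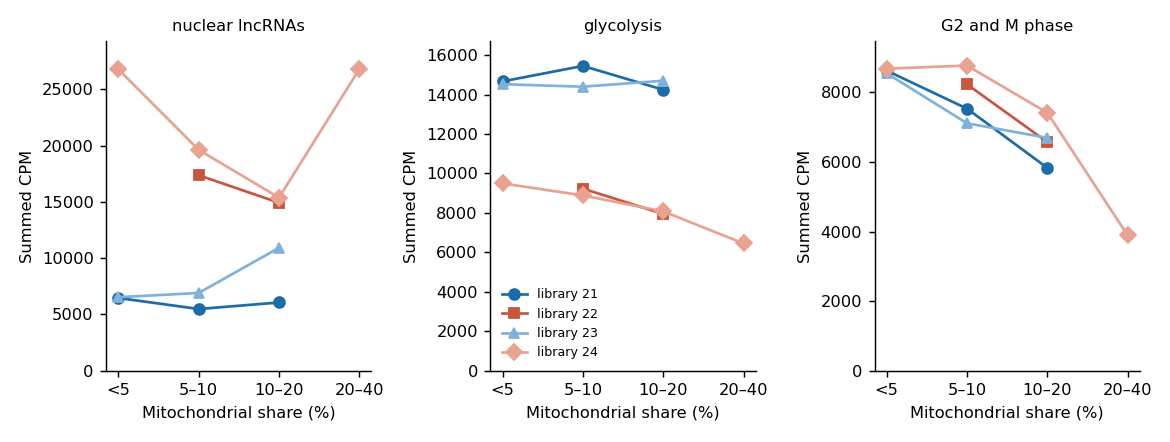
Summed level (CPM of non-mitochondrial human UMIs, y axes from 0) of the nuclear long RNA, glycolysis and G2 and M phase lists in Jurkat-like barcodes binned by mitochondrial share (x axis, percent), for bins of at least 10 barcodes, with 1 line per library. In library 24 the nuclear RNAs drop from 26764 to 15377 CPM and return to 26793 CPM in the 13 barcodes of the last bin.

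Nuclear genes for mitochondrial proteins were covered by 4 lists. In libraries 22 and 24, 2 of 75 genes of oxidative phosphorylation were higher in the high group (UQCRH, of complex III, log2 0.18, and USMG5, of ATP synthase, 0.26), against 0.557% of all genes, and 0 lower, with 59 of 75 above 0 and a median of 0.06. Of 70 mitochondrial ribosomal proteins 2 were higher (MRPS7, 0.39, and MRPL41, 0.31) and 0 lower, with a median of 0.08. With depth matching UQCRH and USMG5 still passed. MRPS7 (log2 0.37, adjusted p = 0.090) and MRPL41 (log2 0.31, adjusted p = 0.089) then did not. Without barcodes with cytotoxic UMIs 0 of 75 and 0 of 71 passed in these 2 lists. The log2 differences there were 0.19 for UQCRH, 0.28 for USMG5, 0.35 for MRPL41 and 0.23 for MRPS7, so that only MRPS7 was smaller. Import factors, chaperones and carriers had 0 of 30 calls. The genes of mitochondrial genome maintenance and expression had 1 of 12 lower, POLG (−0.53), with 8 of 12 above 0 and a median of 0.06. In libraries 21 and 23 the medians of the 4 lists were −0.12, −0.25, −0.27 and −0.06 with 0 calls.

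Cytosolic ribosomal proteins had 1 of 79 genes higher in libraries 22 and 24 (RPS23, log2 0.12) and 0 lower, and 75 of 79 were above 0 with a median of 0.05. In libraries 21 and 23 the direction was the other one, with 75 of 79 below 0 and a median of −0.18. Over the 4 libraries 76 of 79 were below 0, with a median of −0.09. Without TMM the medians of libraries 21 and 23 were 0.01 and −0.22. All counts here are to be read against the 1.94% of all genes that passed, at which lists of this size give few calls or none, so that a count of 0 or 1 is no result about a list. The T cell receptor complex had 0 of 4 calls and proteasome subunits 0 of 31. Cholesterol synthesis had 3 of 19 genes lower (MSMO1, log2 −0.40, IDI1, −0.36, and HMGCS1, −0.35), and 0 of 19 passed with depth matching or without cytotoxic UMIs. With depth matching these 3 were at −0.38, −0.32 and −0.20, and without cytotoxic UMIs at −0.41, −0.35 and −0.30. Of the other genes named here, RPS23, TMSB4X, TMSB10, ARPC1B, HLA-B, HLA-C, DNAJB1, HNRNPA2B1 and XAF1, only HNRNPA2B1 still passed with depth matching, and 0 passed without cytotoxic UMIs. Each kept its sign in both. With depth matching, then without cytotoxic UMIs, RPS23 was at 0.09 and 0.18 and TMSB4X at −0.09 and −0.17. TMSB10 was at −0.08 and −0.10, ARPC1B at 0.24 and 0.28, and HLA-B at −0.10 and −0.21. HLA-C was at −0.18 and −0.17, DNAJB1 at −0.30 and −0.45, HNRNPA2B1 at −0.24 and −0.20, and XAF1 at 0.38 and 0.42. The actin list had 3 of 32 lower, among them the abundant actin-binding thymosins TMSB4X and TMSB10 (both −0.14), and 1 higher (ARPC1B, 0.28). HLA-B (−0.24) and HLA-C (−0.22) were the 2 calls among 29 membrane proteins. Chaperones had 1 of 22 lower (DNAJB1, −0.43). Splicing factors had 1 of 38 lower (HNRNPA2B1, −0.22) and T cell receptor signalling 1 of 17 lower. Interferon-stimulated genes had 1 of 7 higher (XAF1, 0.36). The ATF4 response, apoptosis, immediate early, antioxidant, translation factor and snoRNA host lists had 0 calls, as did lineage transcription factors.

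Among the single genes that were highest in the high group of libraries 22 and 24, chosen after their values were seen, were 2 of early lymphocytes. IGLL1, a surrogate light chain gene, stood at 160 and 129 CPM against 83.7 and 97.5 CPM (log2 0.58 ± 0.09 SE, adjusted p = 6.7e-07). CD1E, a lipid-antigen protein of thymocytes, stood at 504 and 472 CPM against 376 and 374 CPM (log2 0.37 ± 0.06 SE, adjusted p = 1.6e-06). LTB, a cytokine of lymphocytes, stood at 15.3 and 15.8 CPM against 34.3 and 46.0 CPM (log2 −1.44 ± 0.18 SE, adjusted p = 8.9e-13) and IL32 at 311 and 320 CPM against 440 and 487 CPM (log2 −0.56 ± 0.06 SE). IL32 had 7846 to 8993 CPM in TALL-104-like barcodes of the 2 libraries, and without Jurkat-like barcodes with cytotoxic UMIs it still passed (log2 −0.39, adjusted p = 0.0018).

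**Figure D5:**
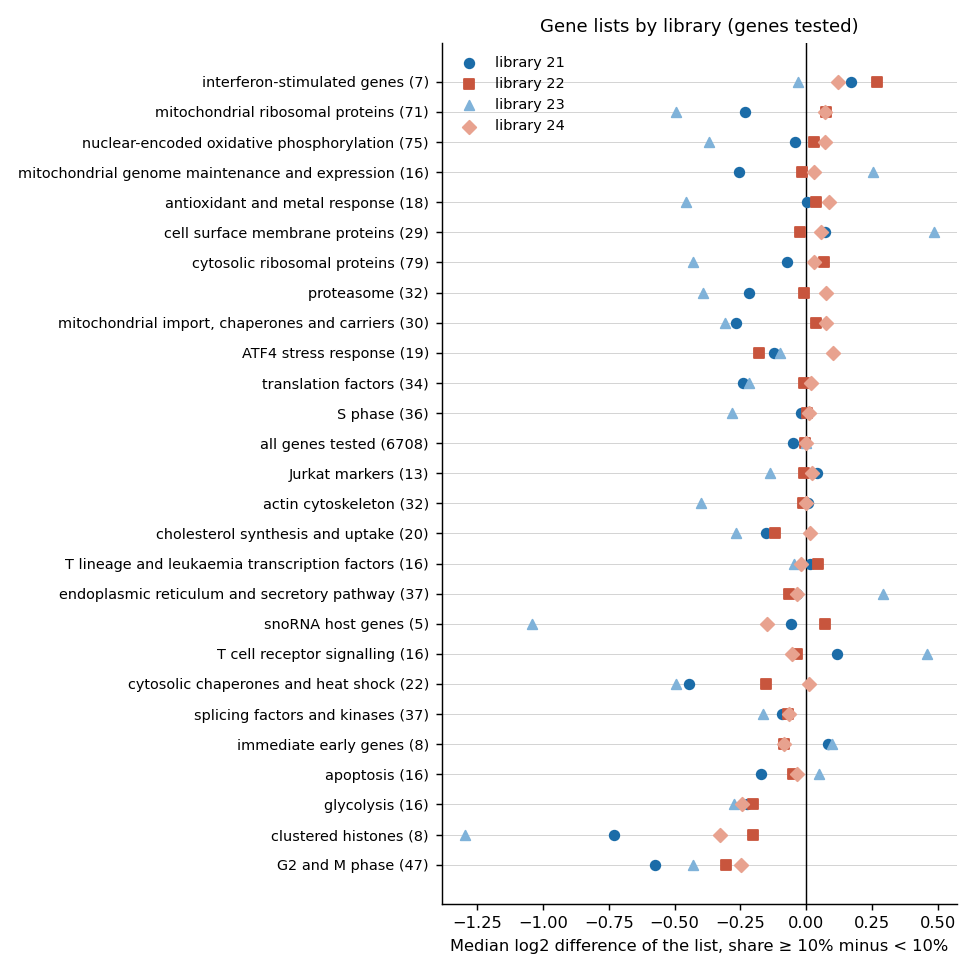
Median log2 difference (x axis, mitochondrial share of at least 10% minus under 10%, TMM-scaled) of each gene list with at least 5 tested genes, by library, with the number of genes tested in brackets. Glycolysis, clustered histones, the G2 and M phases and splicing factors lie below 0 in 4 of 4 libraries (without TMM, splicing factors turn to 0.04 in library 23), and library 23, with 20 barcodes in the high group, is often the farthest point.

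A threshold set within each library gave more calls. When the highest 10% of each library's Jurkat-like barcodes by mitochondrial share (150, 29, 304 and 87 barcodes) was compared with the rest, 363 of 6613 genes passed (5.49%), 172 higher (2.6%) and 191 lower (2.89%). This split, added after the data were seen, moves barcodes of libraries 21 and 23 from under 10% into the high group, and it moves most of the high-share barcodes of libraries 22 and 24, 156 and 515 at the 10% threshold, into the comparison. The count ranged from 58 to 765 as each library was left out: it was 58 without library 21, 596 without 22, 60 without 23 and 765 without 24. Matching barcodes on depth left 143 calls of 6604 (2.17%), 60 higher (0.909%) and 83 lower (1.26%). The highest 10% had fewer other UMIs, with medians of 12017.5, 8325, 12636 and 7525 against 16760, 9733, 16670 and 8873.

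In that split the G2 and M phase list had 22 of 47 genes lower, against 2.89% of all genes (6 after matching on depth, against 1.26%), and 0 higher, with CCNB1 at a log2 difference of −0.65 ± 0.06 SE (adjusted p = 2.4e-07). Cytosolic chaperones had 14 of 22 lower (13 after matching), among them HSPA8 (−0.51 ± 0.05 SE, adjusted p = 2.8e-07), STIP1 (−0.43), DNAJB1 (−0.41) and 6 subunits of the folding complex CCT (−0.19 to −0.35). HSPA8 stood at 905 and 1095 CPM in the high group of libraries 21 and 23 under the 10% rule, against 1589 and 1542 CPM, and at 399 and 418 CPM against 430 and 452 CPM in libraries 22 and 24. For the whole chaperone list the median log2 differences under the 10% rule were −0.44, −0.15, −0.49 and 0.01 in libraries 21 to 24. Glycolysis had 2 of 16 lower, against the same 2.89% of all genes, ENO1 (−0.26) and PFKP (−0.30), and 1 of 16 after matching, ENO1. Of membrane proteins 7 of 29 were higher, against 2.6% of all genes (2 after matching, against 0.909%), among them ITGB1, an integrin chain (0.38 ± 0.07 SE, adjusted p = 0.0016).

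The difference between high and low share itself differed between preparations for 28 of 6708 genes (0.417%), 11 higher (0.164%) and 17 lower (0.253%) in libraries 22 and 24 than in 21 and 23, by the interaction term of the same edgeR model. The high groups were unlike, with 3.35% and 0.66% of Jurkat-like barcodes in libraries 21 and 23 and 54.5% and 59.6% in 22 and 24. A difference between preparations thus cannot be told apart here from the place of the threshold. The count was 387 without library 21, 182 without library 23, and 0 without library 22 or 24, and DESeq2 called 1. LTB had the lowest p, with 39.7 and 49.8 CPM in the high group of libraries 21 and 23 against 12.9 and 12.2 CPM in the low group, and the opposite order in 22 and 24 (interaction log2 −3.04, adjusted p = 0.00075). In library 23 its high group held 5 UMIs. The mitochondrial ribosomal gene MRPS7 (1.07) and SRM, the spermidine synthase gene (0.91), lay on the other side, and PTPRC, the phosphatase CD45, stood at −0.87.

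The other human line of libraries 22 and 24 was split in the same way. TALL-104-like barcodes, with at least 0.2% of human UMIs on NKG7, CST7 and CD8A, numbered 69 at or above 10% and 102 below in library 22, and 213 and 193 in library 24, with medians of 1871 to 2476.5 non-mitochondrial human UMIs. The difference between high and low share differed between the lines for 35 of 7234 genes (0.484%), 15 higher (0.207%) and 20 lower (0.276%) in Jurkat-like barcodes. With a limit of 0.5% in place of 0.2% the count was 1, and DESeq2 called 10.

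KLRB1, a receptor of cytotoxic cells, stood at 0 and 3.20 CPM against 18.3 and 23.5 CPM in Jurkat-like barcodes and at 1155 and 1246 CPM against 1182 and 1250 CPM in TALL-104-like ones. IL32 (interaction log2 −0.61 ± 0.07 SE) and MALAT1 (−0.39 ± 0.05 SE) followed, and all 3 are abundant in TALL-104-like barcodes. The fitted value of a gene with 0 UMIs in a sum, such as KLRB1 or MKI67, depends on the prior count and is no bound. On the other side MKI67 stood at 0 and 7.16 CPM against 15.1 and 125 CPM in TALL-104-like barcodes, and TUBA1B, an alpha-tubulin, at 112 and 143 CPM against 275 and 396 CPM (interaction 1.31 ± 0.19 SE, adjusted p = 1.4e-09). Both genes are more abundant in Jurkat-like barcodes, with 333 to 548 CPM for MKI67. For these genes the low group of each line held more RNA that is abundant in the other line, and the part of the other line's RNA in this was not tested. For ENO1 the log2 differences were −0.49 in Jurkat-like and −0.35 in TALL-104-like barcodes, with an interaction of −0.15 ± 0.11 SE (adjusted p = 0.80).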

How the data were processed

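The deposited matrices hold unnormalized UMI counts. The authors downsampled the reads of each library, aligned and counted them with Cell Ranger (3.0.2, per the labels) against a joint hg19 and mm10 reference, and kept all barcodes. Libraries 21 to 24 held 38116299 to 251164949 UMIs. No cell annotation was used, so cell names were rebuilt by the rule given above. The members, gene lists and tests were chosen with earlier results of these data known.

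Counts were summed per library and group, scaled by TMM and tested in edgeR 4.0.16 (glmQLFit, robust) with library as a block, 8 sums, a mean of at least 20 CPM and a Benjamini-Hochberg adjusted p under 0.05. DESeq2 1.42.0 was an alternative. Each library gives both groups, which pairs the sums. Scripts were tested on simulated data. The planned test of UMIs per barcode was left out because these UMIs enter the share. Mouse UMIs do not enter the share but are capped by the rule, and their test is given with that limit. No doublet caller was run. Barcodes over 3 times the median UMIs were left out in an alternative. Named genes were genes called over 4 libraries with 1 sign in all and at least 50 CPM (up to 12 per direction, of which there were 0), the 3 most abundant tested genes of each list, MALAT1, NEAT1, the mitochondrial mRNAs, the Jurkat markers and the 3 genes of lowest p per direction of each interaction. Others were named after their values were seen. Not every gene of the rule is printed. Thinning kept 45, 156, 18 and 513 high-share barcodes of libraries 21 to 24 and the whole low group.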

Additional observations from a re-analysis of the deposited data

Results flagged for a closer look

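Of 39 sets of 4 library values looked at, 6 had a library apart from the other 3 by Dixon's criterion, which chance gives for about 1 in 20 sets. Library 23 was apart in the median genes per thinned barcode of the high group (727.5) and in the median log2 difference of the lists for the endoplasmic reticulum (0.29), actin cytoskeleton (−0.40), S phase (−0.28) and antioxidant response (−0.46). Its high group held 20 barcodes, with 5 UMIs of LTB and 3 of LGALS1. Library 21 was apart in MALAT1 of the high group, at 6130 CPM.

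The difference between high and low share, at a threshold that took unlike parts of the preparations, differed between them for 28 genes. Among those of lowest p were LTB (−3.04) and LGALS1 (−2.05), lower in libraries 22 and 24, and MRPS7 (1.07), HIST1H4C (0.98) and SRM (0.91), higher there. It differed between Jurkat-like and TALL-104-like barcodes for 35 genes. Those of lowest p were KLRB1 (−3.17), IL32 (−0.61) and MALAT1 (−0.39), lower in Jurkat-like barcodes, and MKI67 (3.74), HIST1H4C (1.33) and TUBA1B (1.31), higher there. All are interaction terms on the log2 scale.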

How the results depend on the processing

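The alternatives with a low group of 5% to 10%, without cytotoxic UMIs or with the highest 10% were chosen after seeing the data. The count of 0 genes over 4 libraries was also 0 at a minimum of 500 or 3000 UMIs, at over 95% human UMIs, without barcodes of very high UMIs, with the 3 genes of the rule at 0, without TMM, at 100 CPM or more, in libraries 21 and 23 only, with the low group limited to 5% to 10%, and with no replicate block. It was 110 with the high group at 20% or more (8 higher and 102 lower, in 40 barcodes, where the median of all genes was −0.39), 3 with a low group under 5%, 4 with depth-matched barcodes, 14 with no filter, 3 without cytotoxic UMIs, 1 in DESeq2, 136 in libraries 22 and 24 and 363 for the highest 10%. Leaving out each library gave 0 to 2. The 136 became 77 with depth matching, 71 without cytotoxic UMIs and 90 with a low group of 5% to 10%. The 363 became 143 with depth matching, 93 in libraries 22 and 24, and 58 to 765 without single libraries. The 28 genes that differed between preparations became 1 in DESeq2, 0 at 100 CPM or more, and 0 to 387 without single libraries. The 35 that differed between lines became 10 in DESeq2, 12 at 3000 UMIs and 1 at 0.5%. The causes were not tested.

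Non-mitochondrial UMIs per barcode had a mean log2 difference of −0.90, which was −3.09 at 20% or more, −0.37 without library 23 and 0.0025 in libraries 22 and 24. Genes per thinned barcode turned to −0.0035 at over 95% human UMIs and −0.00057 for the highest 10%. Mouse UMIs turned to −1.97 per 1000 in libraries 22 and 24. Of 149 named genes under the alternatives, 3071 values in all, 80 passed with the same sign, 405 changed sign without passing and 5 passed with the other sign. Those were MALAT1 (−0.29), NEAT1 (−0.19) and MRPS7 (0.39) in libraries 22 and 24, and FTL (−1.46) and UQCRH (−1.39) at 20% or more. Some of the 149 genes were named because they passed in libraries 22 and 24, itself 1 of the alternatives. The 80 passes are thus partly set by that choice. The smallest sum, library 23's high group, held 100415 UMIs.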
